A study of Mus musculus with 8 samples.

Results

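Meningeal spots are the places in a brain section where RNA of the brain's covering membranes was captured, and here they were followed across 8 coronal sections of mouse brain. The assay was Visium, which captures RNA on an array of 55 µm spots spaced 100 µm apart and counts it as UMIs (unique molecular identifiers, 1 for each captured molecule). A spot is a small region that can hold several cells of different types. The spots were chosen by their own readout. In each section the spots with at least 200 detected genes and at most 30% mitochondrial UMIs were kept, each kept spot was scored by its summed UMIs of Fmod, Aldh1a2, Slc6a13, Ogn, Slc13a4, Slc22a6 and Myoc per 10000 UMIs, and the 2% with the highest score were taken. This gave 427 meningeal spots among 21328 kept spots. There were 51 and 55 in the PTX sections, 56 and 57 in the PTX+GCV sections, 56 and 54 in the pair labelled PTX+ABT263, and 47 and 51 in the Control sections. Their number follows from the 2% share and says nothing about how much meninges a section holds.

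The 4 groups had 2 sections each. PTX mice received paclitaxel, a chemotherapy drug that binds microtubules, at 5 mg/kg daily in 2 cycles of 5 days with a 7 day interval. PTX+GCV mice were also given ganciclovir at 25 mg/kg daily, and PTX+ABT263 mice ABT263, an inhibitor of BCL-2 family proteins, at 1.5 mg/kg daily, in 2 cycles of 5 days with 2 weeks between them. Control mice received the vehicle of DMSO and saline. All 4 groups, Control included, are labelled as wild-type p16-3MR mice, male and 9 to 10 months old. In p16-3MR mice the promoter of p16 (Cdkn2a) drives a reporter fused to a viral thymidine kinase, which turns ganciclovir toxic in the cells that make it. Brains were taken 6 months after PTX. Whether the 2 sections of each group are from different mice is not given in the sources used here, so p-values measure only the spread between these sections, which may be technical.

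The sections labelled PTX+ABT263 went against their male label. Xist, a transcript of the inactive X chromosome of females, had 34.2 and 19.5 CPM (UMIs scaled to a common library total) in their meningeal spots and 0 in all 6 other sections. Ddx3y, a gene of the Y chromosome, had 2.44 and 0 CPM in the sections labelled PTX+ABT263 and between 20.55 and 41.8 CPM in the other 6. Counts of genes are therefore also given with these sections left out, together or 1 at a time. Over all sections 22096 spots lay under tissue, of which 768 were left out by the limits on genes and mitochondrial UMIs, and a section's kept spots held a median of 7583 to 15716 UMIs. Of 4764 distinct kept barcodes 4042 occurred in more than 1 section, since the array carries a fixed set.

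The meninges are the layers of fibroblasts, barrier cells, vessels and immune cells between brain and skull. Their fibroblasts secrete collagens, small leucine-rich proteoglycans and growth factors, and make retinoic acid through Aldh1a2. Cells of the arachnoid seal the fluid space with tight junctions and move organic anions and other solutes through carriers of the Slc families. Beneath them lies the glia limitans, a sheet of astrocyte endfeet on a basement membrane, and macrophages that present antigen patrol the border.

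The score that chose the spots is described here without a test. The median score was 12.5 and 12.2 UMIs per 10000 in the PTX sections, 12.02 and 9.74 with GCV, 12.5 and 8.75 in the pair labelled PTX+ABT263, and 17.05 and 13.3 in Control. The last spot inside scored between 4.49 and 7.08 in the 8 sections and the first spot outside between 4.49 and 6.93, so the limit cuts a continuous range. The median of the other spots was 0, and 79.4% to 90.6% of them held no UMI of the 7 genes. Of the meningeal spots, 38 held 1 UMI of these genes, 31 held 2, and 358 held 3 or more. All 7 genes were detected together in 29 spots, and 60 spots showed a single one.

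Myoc, a secreted protein, supplied the largest part of the score, 31.6% of the 7 genes' UMIs. It had a lowest level of 2.18, a median of 4.75 and a highest of 5.597 UMIs per 10000 in the meningeal spots over 8 sections, against 0.0184, 0.0308 and 0.0523 in the other spots. The lowest Myoc level was in PTX+ABT263 section 2, and the 2 Control sections were at 5.50 and 5.59. Slc6a13, a GABA and taurine transporter, had a median of 2.09 UMIs per 10000 in the meningeal spots and 0.0407 in the other spots. Fmod (fibromodulin, a collagen-binding proteoglycan) had medians of 1.92 and 0.0183, Aldh1a2 1.69 and 0.0192, Slc13a4 (a sulfate transporter) 1.54 and 0.0250, Ogn (osteoglycin) 1.38 and 0.0211, and Slc22a6 (an organic anion transporter) 0.994 and 0.0105, in the same order. No section of the other spots reached the lowest section of the meningeal spots for any of the 7, which the choice of spots makes so. The meningeal spots held 39.7% to 51.6% of all UMIs of the 7 genes in a section.

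Position was not used to choose the spots and could be tested. A spot was called an edge spot where fewer than 6 of its 6 array neighbours were kept spots, which takes in the outer rim of the section as well as spots beside holes, fissures and ventricles. Edge spots made up 84.3% and 76.4% of the meningeal spots in the PTX sections, 76.8% and 70.2% with GCV, 62.5% and 70.4% in the pair labelled PTX+ABT263, and 68.1% and 62.7% in Control. Of the other spots, 24.9% and 13.8%, 14.6% and 13.05%, 11.2% and 14.6%, and 14.6% and 19.1% were edge spots in the same sections. The share was higher among the meningeal spots in 8 of 8 sections, by 55.7 ± 6.26 percentage points (SD, n = 8, two-sided exact permutation test over the section signs, p = 0.0078, the smallest that 8 sections allow). With the spots on the outer row and column of the array left out, where the tissue may run on past the array, the difference was 56.0 points, and without PTX+ABT263 section 1 or 2 it was 56.3 or 55.7 points.

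**Figure D1:**
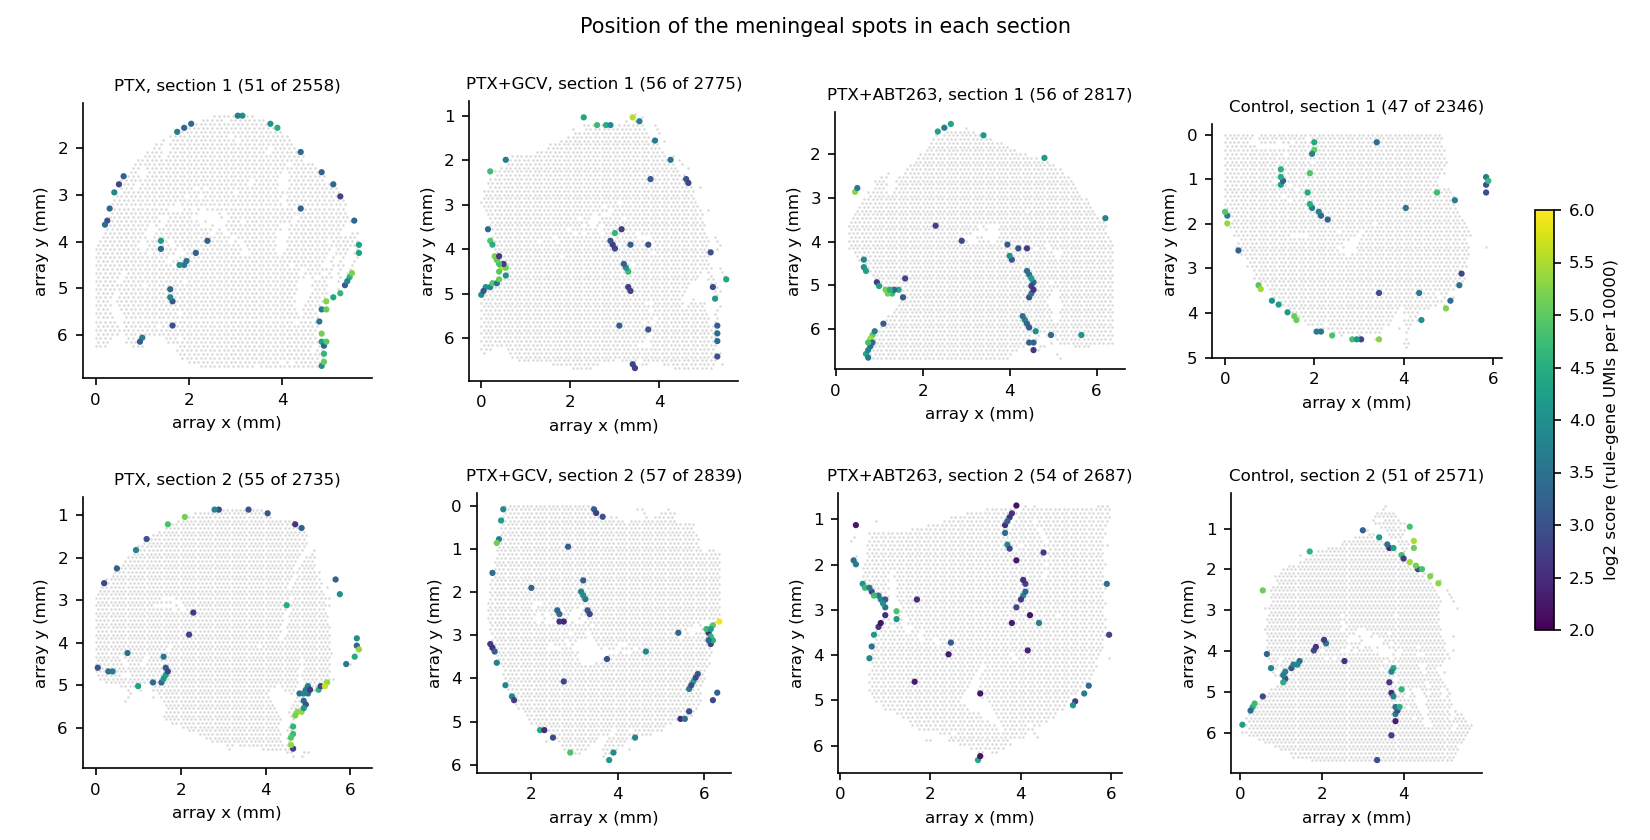
Position of the meningeal spots (coloured by the log2 of their score) among all kept spots (grey) in the 8 sections, with both axes in millimetres on the array. Of the 427 meningeal spots, 305 lie at an edge of the kept spots, which takes in gaps inside the section. In PTX section 1, 51 of 2558 kept spots are coloured.

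The meningeal spots thinned out quickly from the edge inwards. On average 71.4% of a section's meningeal spots lay at the edge, 8.17% 1 array step inside and 7.55% 2 steps inside, against 15.7%, 14.8% and 13.2% of the other spots. Of the 427, 34 lay 4 or more steps from the edge. They also lay together. Between 43.1% and 66.1% of a section's meningeal spots touched another meningeal spot, while 4.74% to 5.43% of the other spots touched one (difference 50.7 ± 7.32 points, SD, n = 8 sections, higher in 8 of 8, exact permutation p = 0.0078).

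**Figure D2:**
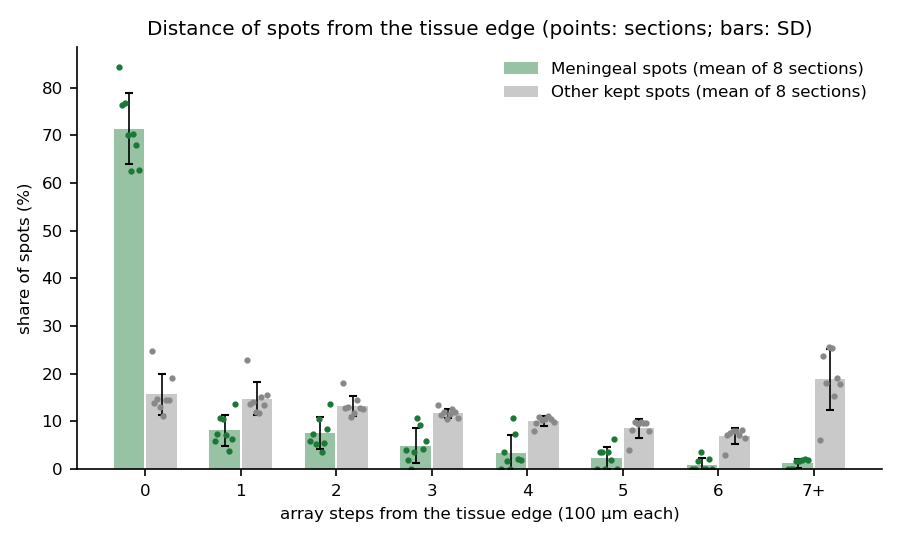
Share of the meningeal spots and of the other kept spots (vertical axis, %) by distance from the tissue edge in array steps of 100 µm, columns are means of 8 sections, error bars SD and points sections. The meningeal spots are concentrated at step 0 with a mean of 71.4%, while the other spots are spread over all distances.

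The meningeal spots were shallower than the rest. Their median depth lay between 3634 and 7712 UMIs over the sections and that of the other spots between 7652 and 15989. The score divides by depth, so a spot with few UMIs reaches a high score with few molecules. Beside other spots with no more UMIs than the meningeal median, of which 18.8% to 54.9% were edge spots, the difference in edge share was 39.4 ± 13.6 points (SD, n = 8, higher in 8 of 8, exact permutation p = 0.0078). The mitochondrial share was 11.7% to 17.6% in the median meningeal spot of a section and 9.92% to 15.02% in the median other spot, with Control section 2 alone running the other way (12.2% and 14.2%). How far depth and mitochondrial share set the levels below was not tested.

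Against the other spots, 369 of 10929 genes (those with at least 20 UMIs in the meningeal spots, the 7 score genes left out) were at least 2 times higher in 8 of 8 sections, which is 3.38%, and 21 were at least 2 times lower, which is 0.192%. The members were selected on this contrast, so these values are a description without a test. Without the sections labelled PTX+ABT263 the counts were 370 and 25. Levels are UMIs per 10000 of the summed spots, and folds are ratios of the means over 8 sections.

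Ptgds, the prostaglandin D2 synthase that meningeal cells release into the cerebrospinal fluid, led the genes with at least 1 UMI per 10000 in the meningeal spots, ranked by their mean log2 ratio. Its level was 199 at the lowest, 238 in the median and 315 at the highest section of the meningeal spots, against 5.01, 6.80 and 8.76 in the other spots, or 37.3-fold. The meningeal spots hold 1.01% of all kept UMIs but 27.3% of those of Ptgds. Aebp1, a secreted protein of collagen-rich matrix, was 35.3-fold higher (median 1.71 and 0.0519), and Slc6a20a, a proline transporter, 31.7-fold (2.28 and 0.0734). Gjb2, a gap junction protein that couples leptomeningeal cells, followed at 28.4-fold (1.08 and 0.0395), Serping1, the inhibitor of complement C1, at 27.8-fold (0.988 and 0.0397), and Igf2, a growth factor of meninges and choroid plexus, at 27.3-fold (5.28 and 0.195). No section's meningeal level of these 6 genes overlapped any section's level in the other spots.

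Matrix genes came next. Col1a2, a chain of collagen I, was 26.3-fold higher (median 1.01 and 0.0425), Dcn (decorin, a proteoglycan that binds collagen) 23.7-fold (1.85 and 0.0781), Pcolce, which enhances procollagen cleavage, 20.6-fold (1.05 and 0.0471), and Mgp, a calcification inhibitor, 16.2-fold (4.55 and 0.268). Also among the leading genes were Acta2 of smooth muscle (14.7-fold), the carboxylate transporter Slc13a3 (13.4-fold), the cystine transporter Slc7a11 (12.01-fold) and Gfap, the filament of astrocytes (11.8-fold, median 7.74 and 0.697). The lowest ratio of any of these 14 in any section was that of Acta2, at 2.998 on the log2 scale. In the meningeal spots outside the choroid plexus and smooth muscle rich sets described below, Acta2 had a median of 0.161, against 0.117 in the other spots. Acta2 is one of the genes that chose the smooth muscle rich set.

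**Figure D3:**
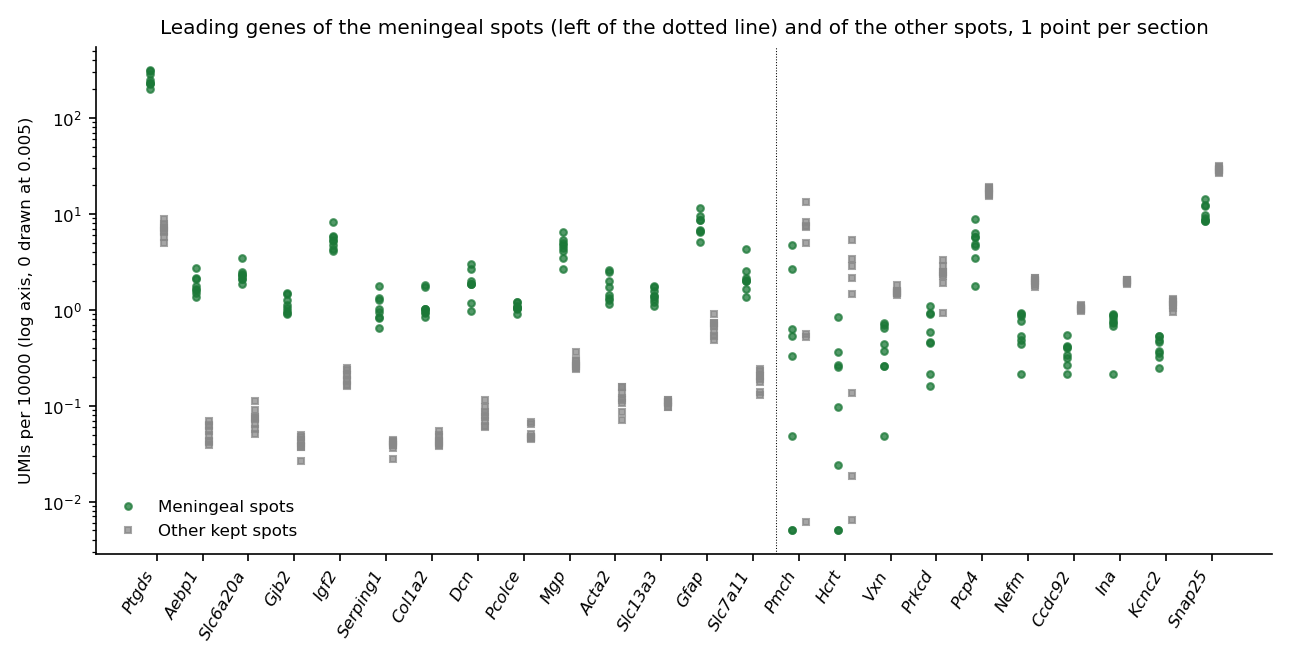
Levels of 14 leading higher and 10 leading lower genes (UMIs per 10000, log axis) in the meningeal spots (green) and the other kept spots (grey), 1 point per section. For the 14 genes left of the dotted line the 2 sets of points are apart, with Ptgds between 199 and 315 in the meningeal spots.

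The leading genes on the lower side included several of neurons. Snap25, a synaptic vesicle fusion protein, had 8.39, 9.36 and 14.4 UMIs per 10000 (lowest, median and highest section) in the meningeal spots and 26.4, 28.5 and 31.3 in the other spots. Pcp4, a calmodulin regulator, had medians of 5.25 and 17.3, the neurofilament genes Nefm 0.647 and 1.98 and Ina 0.774 and 1.98, and the kinase Prkcd 0.517 and 2.41. Pmch and Hcrt, peptides of the lateral hypothalamus, had the lowest mean ratios, but their levels ran over a wide range among sections, for Pmch between 0 and 4.69 in the meningeal spots and between 0.00610 and 13.3 in the other spots. Vxn, Ccdc92 and the potassium channel gene Kcnc2 complete the 10.

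Gene lists were read by role, as counts of genes at least 2 times higher in 8 of 8 sections beside the 3.38% of all genes and without a test. Among small leucine-rich proteoglycans 5 of the 6 genes with at least 20 UMIs were higher, with Lum at 21.1-fold, Bgn at 16.4-fold and Prelp at 6.52-fold. Of collagens 5 of 9 were higher, with Col1a1 at 23.9-fold, while Col16a1 (2.18-fold) and Col6a1 (2.67-fold) passed in 4 and 5 sections. Of basement membrane genes 7 of 14 were higher, among them fibronectin Fn1 (11.5-fold) and laminin chains Lamb2 (7.28-fold) and Lamc1 (3.09-fold), whereas the vascular collagen Col4a1 passed in 6 sections (2.22-fold). Markers of meningeal fibroblasts were higher for 8 of 13 genes, with the stress-response cofactor Nupr1 at 9.26-fold and S100a6 at 4.51-fold. Zic1 and Nr2f2, transcription factors that neurons also express, were 1.86-fold and 1.57-fold higher and passed in 3 and 2 sections.

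Barrier and transport genes were uneven. Of arachnoid barrier markers 3 of 6 were higher. Wnt6 was 30.8-fold higher and the junction gene Perp 3.76-fold, but Cldn11, a claudin shared with oligodendrocytes, was 1.77-fold higher and Jup 1.26-fold. The list of 9, which also holds Cdh1, Dpp4, Krt8, Krt18 and Dsp, summed to 2.61 to 4.36 UMIs per 10000 in the meningeal spots and 1.65 to 2.16 in the other spots. Of other solute carriers of the meninges 5 of 9 were higher, and their sum was 6.05 to 11.1 against 0.658 to 0.878. It included Slc22a8, an organic anion transporter, at 14.4-fold.

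Signalling genes of the retinoid, insulin-like growth factor and BMP systems were also represented. Crabp2, which carries retinoic acid to the nucleus, was 56.5-fold higher, and 34.8% of its UMIs lay in the meningeal spots. In all, 2 of 11 retinoid genes passed in every section. In the insulin-like growth factor system 4 of 10 passed, with the binding proteins Igfbp2 at 8.38-fold, Igfbp7 at 3.78-fold and Igfbp5 at 3.72-fold beside Igf2. In the BMP and TGF-beta list 6 of 12 passed, with the ligands Bmp6 at 17.7-fold and Bmp7 at 13.6-fold and the BMP target genes Id3 at 8.54-fold and Id1 at 5.53-fold. Of Wnt ligands and inhibitors 1 of 8 passed, Wnt5a at 6.47-fold.

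Immune genes were mostly higher. Border macrophage markers were higher for 8 of 9 genes, with Mrc1 at 25.3-fold, Pf4 at 23.5-fold, Stab1 at 8.45-fold and Dab2 at 8.10-fold, and all 4 genes of MHC class II were higher, H2-Ab1 at 31.8-fold, H2-Aa at 28.5-fold, Cd74 at 22.4-fold and H2-Eb1 at 18.9-fold. The class II sum was 1.27, 1.98 and 3.34 UMIs per 10000 at its lowest, median and highest section, against 0.0626, 0.0948 and 0.106. Of microglia markers 0 of 10 passed. C1qa was 2.21-fold and C1qb 1.95-fold higher on average. In complement and chemokines 4 of 4 genes passed, among them C4b at 5.77-fold and Cxcl12 at 4.42-fold, and in the list of MHC class I and interferon response 7 of 11 passed, with Ifitm3 at 11.1-fold and B2m at 2.81-fold.

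The meningeal spots also held RNA of neighbouring cell types. Astrocyte markers summed to 62.5 to 97.6 UMIs per 10000 in the meningeal spots and 34.4 to 43.6 in the other spots, and 6 of 14 passed in every section. Gfap was among them, while the glutamate transporter Slc1a2 and the glycolytic enzyme Aldoc were 1.196-fold and 1.197-fold higher and passed in 0 sections. Vessel markers were higher for 4 of 9 smooth muscle genes, 7 of 13 endothelial genes and 1 of 6 pericyte genes, that one being Vtn at 9.19-fold. Oligodendrocyte markers had 0 of 7 past the limit, with a sum of 35.6 to 79.3 against 38.2 to 58.5. Neuron markers summed to 23.5, 29.8 and 46.6 against 65.7, 70.6 and 77.5, with no overlap. The defining markers of Schwann cells were at or near 0, with no UMI of Pmp2, Prx and Ncmap in all 427 spots.

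Choroid plexus RNA entered in some sections. Ttr, the thyroid hormone carrier that choroid plexus epithelium secretes, had 6.51 and 53.7 UMIs per 10000 in the meningeal spots of PTX, 123.9 and 100 with GCV, 201 and 13.7 in the pair labelled PTX+ABT263, and 1.71 and 4.73 in Control. The 12 choroid plexus markers summed to between 5.34 and 232 in the meningeal spots and between 11.8 and 42.6 in the other spots, and 0 of 11 genes passed in every section. Meningeal spots that were also among the 2% with the most choroid plexus RNA numbered 1 and 1 in PTX, 8 and 4 with GCV, 6 and 6 in the pair labelled PTX+ABT263, and 1 and 0 in Control, and their part in the Ttr levels was not tested.

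Spots rich in choroid plexus or smooth muscle RNA, chosen as the 2% of each section with the highest sums of Folr1, Clic6, Kcnj13, Otx2, Kl, Sostdc1 and Calml4 or of Acta2, Myh11, Tagln, Myl9, Cnn1, Mylk and Des, were taken for comparison. The meningeal spots shared 27 spots with the first set and 92 with the second, and 117 with either. Spots found in a single set were then compared, again without a test. Collagens summed to 1.61 to 4.78 UMIs per 10000 in the meningeal spots, against 0.329 to 1.15 in choroid plexus spots and 0.881 to 1.59 in smooth muscle rich spots. The secreted proteins of the cerebrospinal fluid, Ptgds among them, had 326 to 523 against 124 to 152 and 118 to 145, and astrocyte markers 58.3 to 98.8 against 16.1 to 34.0 and 46.9 to 63.6. Border macrophage markers were higher in the meningeal spots in 8 of 8 sections against both sets, with a median of 2.21 against 0.819 and 0.972. Retinoid handling genes went the other way against choroid plexus spots, with 5.55 in the median section against 9.04, and were lower in 8 of 8 sections. So were the arachnoid barrier markers in 8 of 8 (3.92 against 5.61) and the insulin-like growth factor list in 7 of 8 (12.7 against 18.7). Proteoglycans were higher in the meningeal spots in 6 of 8 sections against choroid plexus spots and 7 of 8 against smooth muscle rich spots. The class II and the BMP and TGF-beta lists were each higher in 6 of 8 and 8 of 8. Single genes differed. Mgp had medians of 2.77, 3.78 and 3.03 in meningeal, choroid plexus and smooth muscle rich spots. Pcolce had 0.878, 1.25 and 0.385, Igf2 4.42, 5.04 and 0.963, and Ptgds 250, 21.0 and 22.3. Of the proteoglycans, Bgn had 0.678, 0.421 and 0.582, Lum 0.299, 0.249 and 0.372, and Prelp 0.852, 1.58 and 0.588. Igfbp7 had 0.895, 1.82 and 1.34. Smooth muscle markers had a median of 1.105 in the meningeal spots outside both other sets and 4.65 in all meningeal spots.

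The other spots that touch a meningeal spot had intermediate levels. The summed level of fibroblast markers was 6.51 to 10.5 in the meningeal spots, 2.59 to 3.33 in the touching spots and 1.85 to 2.33 in all other spots, and that of class II genes 1.27 to 3.34, 0.125 to 0.556 and 0.0626 to 0.106. With the touching spots in place of all other spots, 171 genes were at least 2 times higher in 8 of 8 sections and 0 lower. Edge meningeal spots set against the other edge spots gave 228 higher and 0 lower.

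Edge and interior members were then compared within sections, a split that the score did not use. The 305 edge spots held 125453 to 330940 UMIs per section and the 122 interior spots 61724 to 232064. In edgeR's quasi-likelihood test with section as a block, 83 of 2413 genes were higher at the edge (3.44%) and 82 lower (3.4%) at an adjusted p under 0.05. Without PTX+ABT263 section 1 the counts were 70 and 63, and without PTX+ABT263 section 2 they were 68 and 65. With total counts in place of TMM factors 54 were higher and 158 lower. The 7 score genes together had 10.96 to 19.7 UMIs per 10000 at the edge and 8.25 to 15.2 inside.

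Among the genes with the smallest p on the higher side, Fn1, the matrix protein fibronectin, had the largest fold change at the edge. It had 1.46, 2.19 and 3.21 UMIs per 10000 at the edge (lowest, median and highest section) and 0, 0.478 and 1.03 inside, a log2 fold change of 2.03 ± 0.26 (SE, n = 8 sections, edgeR adjusted p = 1.26e-05). The groups of values did not overlap. Igf2 had 4.63, 6.17 and 10.12 at the edge and 1.32, 3.70 and 4.53 inside (log2 fold change 0.98 ± 0.15, edgeR adjusted p = 6.87e-05), again with no overlap. Slc1a2 of astrocytes had 10.7, 16.3 and 23.1 at the edge and 8.18, 11.2 and 15 inside (0.58 ± 0.11, adjusted p = 0.00064), higher in 8 of 8 sections. Mgp (1.65), the phosphoprotein Spp1 (1.81), Igfbp6 (1.56), the BMP antagonist Nbl1 (1.09) and the imprinted gene Nnat (1.02) also rose, as did Camk2a, a kinase of excitatory neurons (0.85), and the haemoglobin gene Hbb-bs (1.78), all in log2 units.

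Several leading genes of the meningeal spots were higher at the edge too. Ptgds had 208, 299 and 385 UMIs per 10000 at the edge and 87.5, 145 and 283 inside (log2 fold change 1.14 ± 0.18, edgeR adjusted p = 0.000159). Slc13a3 (1.34), Aebp1 (1.28), Slc22a8 (1.18), Slc6a20a (1.04) and Col1a2 (1.004) passed as well. Dcn did not, with medians of 1.58 at the edge and 2.54 inside (log2 fold change -0.36 ± 0.18, edgeR adjusted p = 0.318), and neither did Gfap, with 7.89 and 8.58 (0.04 ± 0.13, adjusted p = 0.936). For both genes the edge and interior ranges overlapped.

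Inside, myelin genes were higher. All 7 oligodendrocyte markers were lower at the edge. Mal, a protein of compact myelin, had 0.399, 1.44 and 1.76 UMIs per 10000 at the edge and 2.11, 6.05 and 8.31 inside (log2 fold change -1.73 ± 0.20, edgeR adjusted p = 9.06e-06), with no overlap. Opalin (-1.73), Mobp (-1.58), Mbp (-1.46) and Cnp (-1.19) of myelin, the iron carrier Trf (-1.29), the creatine enzyme Gatm (-1.37), Qdpr (-1.23) and Plekhb1 (-1.10) were also among the genes with the smallest p in this direction. Cldn11 was lower as well, with medians of 1.60 and 4.45 (-0.96 ± 0.16, adjusted p = 0.000289), lower at the edge in 8 of 8 sections. For the other lists, 4 of 6 tested genes of the insulin-like growth factor system, 4 of 9 cerebrospinal fluid proteins, 3 of 4 solute carriers and 3 of 14 astrocyte genes were higher at the edge, as were 1 of 3 proteoglycans, the 1 tested collagen, 1 of 2 basement membrane genes and 1 of 4 genes of the BMP and TGF-beta list, with 0 of 1 Wnt and 0 of 2 retinoid genes, and 1 of the cerebrospinal fluid proteins was lower. The genes shown in the plot of fold changes by position all passed in DESeq2 and in every fit with 1 section left out that tested them. Hbb-bs was not tested without PTX section 1 or without PTX section 2, nor Opalin without PTX section 2, and Hbb-bs did not pass with the leading 4% of spots (log2 fold change 1.29, edgeR adjusted p = 0.267).

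**Figure D4:**
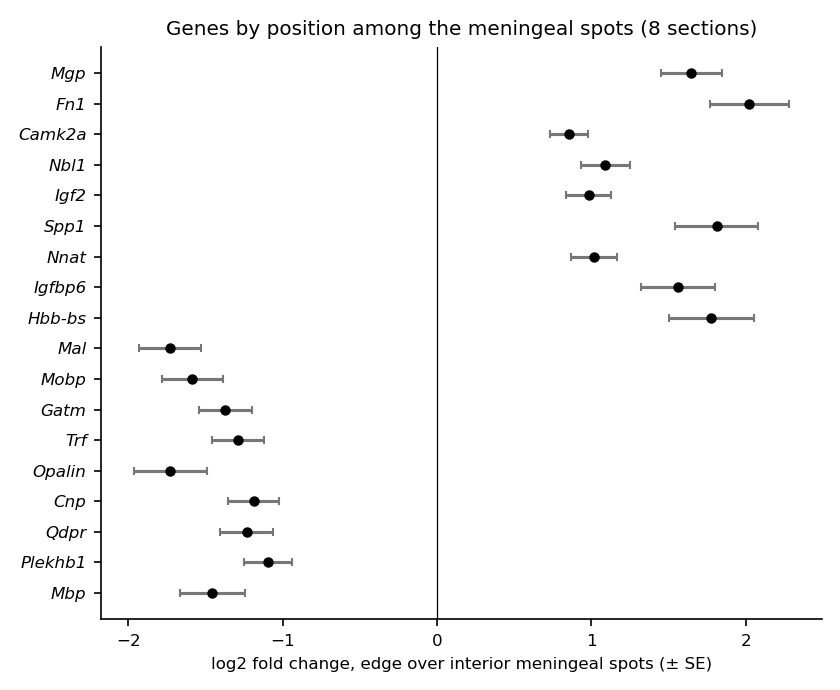
Log2 fold change of edge over interior meningeal spots (horizontal axis) with its SE for 9 of the genes with the smallest adjusted p in each direction, from the fit over 8 sections. Fn1 has the largest value of the upper 9, at 2.03, and the lower 9 include 5 myelin genes (Mal, Opalin, Mobp, Mbp and Cnp) between -1.73 and -1.19.

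The comparisons between groups set the meningeal spots of the treatment groups against each other. UMIs of the meningeal spots were summed per section, 187177 to 512598 of them, and 6871 genes were tested in 1 fit over 8 sections. The sums were 187177 and 243272 in Control and 414537 and 425964 in PTX. The median meningeal spot held 3634 and 4196 UMIs in Control and 7712 and 5925 in PTX. The part of this depth in PTX against Control was not tested. CPM from here on are scaled with TMM factors, so they differ slightly from the CPM of Ddx3y above. No gene of the matrix, fibroblast, barrier, transporter, growth factor, macrophage, class II or astrocyte lists passed in any of the 3 comparisons, and none of the few genes that passed in edgeR did so in DESeq2, which called 0 genes in all 3 (61 higher and 67 lower, 30 and 36, and 46 and 40 at an unadjusted p under 0.05). In bulk sums like these, fewer cells of a type and less RNA per cell cannot be told apart.

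In PTX against Control, 2 genes were higher (0.0291%) and 3 lower (0.0437%) at an adjusted p under 0.05, with 192 and 253 at an unadjusted p under 0.05, and 4 were higher and 3 lower both in the fit without the sections labelled PTX+ABT263 and with total counts in place of TMM factors. Lars2, the mitochondrial leucyl-tRNA synthetase, had 99.9 and 171 CPM in PTX and 1084 and 474 CPM in Control, a log2 fold change of -2.49 ± 0.35 (SE, edgeR adjusted p = 0.000191). The unnamed gene model Gm42418, named here after its values were seen since it is one of 5, had 1051 and 1065 CPM in PTX and 7127 and 4240 CPM in Control (-2.42 ± 0.33, adjusted p = 0.000191). Malat1, a nuclear noncoding RNA, had 259 and 228 CPM in PTX and 558 and 1110 CPM in Control (-1.79 ± 0.34, adjusted p = 0.0196), and was not past the limit without Control section 2 (-1.17, adjusted p = 0.298). It did not pass in edge spots alone either (-0.86, adjusted p = 0.531), nor with the leading 1% (-1.62, adjusted p = 0.257) or 4% of spots (-1.28, adjusted p = 0.374). Edge spots made up 84.3% and 76.4% of the meningeal spots in PTX and 68.1% and 62.7% in Control. In the rest of the section Lars2 and Malat1 ran the same way, with -2.24 for Lars2 (edgeR adjusted p = 0.0866) and -0.87 for Malat1 (adjusted p = 0.0926). Whether the counts of Lars2 and Gm42418 reflect the expression of these genes was not tested.

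Among the genes higher in PTX, Avp (vasopressin, a peptide of hypothalamic neurons) had 138 and 7624 CPM in PTX and 33.2 and 0 CPM in Control (log2 fold change 8.02 ± 1.34, edgeR adjusted p = 0.00345). It rested on PTX section 2, without which it was 3.23 (adjusted p = 0.205), and it was also lost without Control section 2 (6.89, adjusted p = 0.0888). Tmem59l, a membrane protein of neurons, had 200 and 241 CPM in PTX and 66.4 and 98.2 CPM in Control (1.39 ± 0.28, adjusted p = 0.0405). It did not pass without PTX section 2 (1.26, adjusted p = 0.243), Control section 1 (1.19, adjusted p = 0.560) or Control section 2 (1.76, adjusted p = 0.0730).

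Of the tested genes, 9 of 10 fibroblast markers and 5 of 6 collagens had negative fold changes in PTX, beside 3575 of all 6871 genes. None of these markers and collagens passed. Vtn had 483 and 388 CPM in PTX and 818 and 764 CPM in Control (-0.86 ± 0.20, edgeR adjusted p = 0.115). Its groups did not overlap, but with 2 sections against 2 the smallest two-sided permutation p is 0.333. Col1a2 had 90.4 and 94.2 CPM in PTX and 177 and 188 CPM in Control (-0.98 ± 0.27, adjusted p = 0.273), Fn1 150 and 112 CPM in PTX and 254 and 239 CPM in Control (-0.92 ± 0.26, adjusted p = 0.314), and Igf2 516 and 401 CPM in PTX and 851 and 594 CPM in Control (-0.65 ± 0.23, adjusted p = 0.568). Ptgds had 22790 and 26840 CPM in PTX and 31570 and 23910 CPM in Control (-0.16 ± 0.22, adjusted p = 0.938), so its groups overlapped. The median log2 fold change was -0.96 over 6 collagens, -0.43 over 10 fibroblast markers, -0.86 over 7 border macrophage markers and -0.33 over 14 astrocyte genes. By contrast it was 0.36 over 4 class II genes, 0.89 over 6 choroid plexus genes and 1.82 over 3 blood genes, beside -0.02 over all genes. The score that chose the spots ran higher in the Control sections as well, and its part in these values was not tested. With the level of the 7 score genes as a covariate, 3 genes were higher and 5 lower at an adjusted p under 0.05. These counts do not show how the values above change.

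In PTX+GCV against PTX, 0 genes were higher (0%) in edgeR and 5 were lower (0.0728%), with 190 and 173 at an unadjusted p under 0.05, and 1 was higher and 5 lower without the sections labelled PTX+ABT263, and 2 and 5 with total counts. Gh, growth hormone of the pituitary, had 0 and 0 CPM in PTX+GCV and 131 and 401 CPM in PTX, at least 32.0-fold lower at a floor of 3 counts per section (edgeR adjusted p = 0.000378), and in Control it was at 22.1 and 418 CPM. The haemoglobin genes Hba-a1, Hba-a2 and Hbb-bs were lower as well. In PTX against Control the 3 tested blood genes had run higher in PTX, with a median log2 fold change of 1.82. All 3 had an unadjusted edgeR p under 0.05 there, and 0 passed. Hbb-bs had 129 and 22.7 CPM in PTX+GCV and 224 and 532 CPM in PTX (log2 fold change -2.62 ± 0.46, adjusted p = 0.0052), and without PTX+GCV section 2 it was at -1.57 (adjusted p = 0.198), as Hba-a2 was at -1.98 (adjusted p = 0.116). None of the 3 haemoglobin genes passed in the meningeal spots outside the choroid plexus and smooth muscle rich sets (Hbb-bs -1.56, adjusted p = 0.377, Hba-a1 -2.45, adjusted p = 0.105, and Hba-a2 -2.597, adjusted p = 0.165), nor with the leading 1% of spots (adjusted p = 0.998 for each). Avp had 280 and 8.74 CPM in PTX+GCV and 138 and 7624 CPM in PTX, groups that overlap. Its log2 fold change of -5.03 (adjusted p = 0.0186) shrank to -0.23 without PTX section 2 (adjusted p = 1.0), and with a replicate block Avp did not pass (-3.70, adjusted p = 0.770).

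No meningeal gene passed in this comparison either. Igf2 had 580 and 364 CPM in PTX+GCV and 516 and 401 CPM in PTX (log2 fold change 0.01 ± 0.23, edgeR adjusted p = 0.999). Dcn had 118 and 87.4 CPM in PTX+GCV and 181 and 173 CPM in PTX (-0.84 ± 0.26, adjusted p = 0.685). The median log2 fold change was 0.02 over 6 collagens and -0.03 over 10 fibroblast markers, beside 0.01 over all genes. The genes with the smallest p on the higher side were Pmch (5.74, adjusted p = 0.0561), Hcrt (4.94, adjusted p = 0.0767), Mpped1 (1.59, adjusted p = 0.333), the adhesion molecule Vcam1 (1.196, adjusted p = 0.440) and Ak4 (2.00, adjusted p = 0.464).

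In PTX+ABT263 against PTX, 2 genes were higher (0.0291%) and 6 lower (0.0873%), with 201 and 190 at an unadjusted p under 0.05, and all of them rest on sections that went against their sex label. Ddx3y itself was among the lower genes (2.52 and 0 CPM in the sections labelled PTX+ABT263, 33.3 and 37.2 CPM in PTX, log2 fold change -4.29 ± 0.87, edgeR adjusted p = 0.0252), though not once any 1 of these 4 sections was left out (adjusted p = 0.0781 and 0.137 without PTX sections 1 and 2, and 0.115 and 0.0892 without PTX+ABT263 sections 1 and 2). In the other spots of the same sections Ddx3y had a log2 fold change of -7.07 (edgeR adjusted p = 1.88e-07). Gh had 0 and 0 CPM in the meningeal spots of the sections labelled PTX+ABT263 and 131 and 401 CPM in PTX (at least 29.1-fold lower, adjusted p = 0.000347), and Hbb-bs 50.5 and 3.56 CPM in the sections labelled PTX+ABT263 and 224 and 532 CPM in PTX (-3.63 ± 0.52, adjusted p = 0.000347). Hba-a1 fell by 3.597 on the log2 scale and Hba-a2 was lower as well. Outside the choroid plexus and smooth muscle rich sets these 3 haemoglobin genes did not pass (Hbb-bs -2.51, adjusted p = 0.0731, Hba-a1 -2.71, adjusted p = 0.110, and Hba-a2 -2.605, adjusted p = 0.305), nor with the leading 1% of spots (adjusted p = 0.892, 0.861 and 0.924). Avp fell by 6.11, which was -1.31 without PTX section 2 (adjusted p = 0.847).

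The 2 higher genes were Pmch and, named after its values were seen, Gm42418. Pmch had 485 and 35.6 CPM in the sections labelled PTX+ABT263 and 4.76 and 0 CPM in PTX (6.70 ± 1.08, edgeR adjusted p = 0.00108), and it was at 3.77 without PTX+ABT263 section 1 (adjusted p = 0.218). Gm42418 had 2375 and 4595 CPM in the sections labelled PTX+ABT263 and 1051 and 1065 CPM in PTX (1.72 ± 0.33, adjusted p = 0.0110). Lars2 ran the same way without passing, with a log2 fold change of 1.50 in the meningeal spots and 1.16 in the other spots. Of genes that did not pass, the interferon-induced Ifitm3 had 295 and 267 CPM in the sections labelled PTX+ABT263 and 152 and 173 CPM in PTX (0.79 ± 0.22, adjusted p = 0.283) and Ifi27l2a 141 and 174 CPM, against 49.95 and 61.3 CPM in PTX (1.48 ± 0.35, adjusted p = 0.146). The 9 tested genes of MHC class I and interferon response had a median of 0.79 and the 9 tested microglia markers one of 0.52, beside 0.01 over all genes. The 6 tested choroid plexus genes had a larger median, 1.77. The 6 tested genes that neurons switch on with activity had one of -0.82. In each of these lists 0 genes were past the limit.

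**Figure D5:**
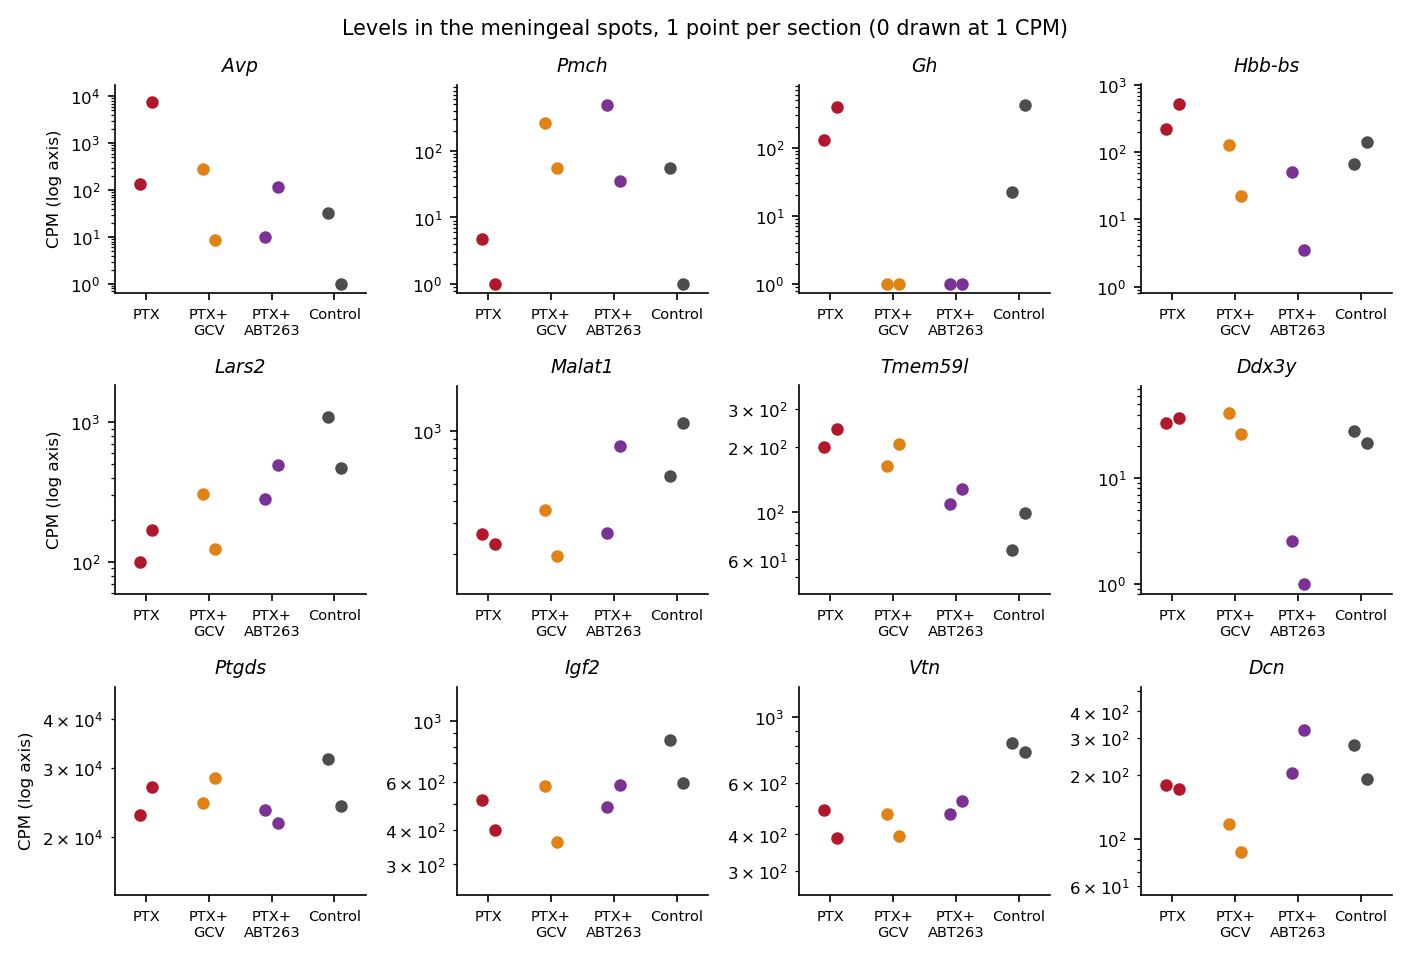
Levels of 12 genes in the meningeal spots (CPM, log axis, a value of 0 drawn at 1), 1 point per section, in PTX, PTX+GCV, PTX+ABT263 and Control. Avp reaches 7624 CPM in a single PTX section, Gh is at 0 in all 4 sections of the senolytic groups, and the points of Ptgds for PTX and Control overlap.

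Haemoglobin, Avp and Pmch levels ran the same way in the other spots of the same sections, without passing there. The log2 fold change of Hbb-bs in the other spots was -2.83 with GCV (edgeR adjusted p = 0.189) and -2.36 for the pair labelled PTX+ABT263 (adjusted p = 0.208), both against PTX, and that of Avp was -4.99 (adjusted p = 0.139) and -6.03 (adjusted p = 0.0869). For Pmch it was 4.78 with GCV (edgeR adjusted p = 0.219) and 5.21 for the pair labelled PTX+ABT263 (adjusted p = 0.162). When the effect in the meningeal spots was set against that in the other spots within sections, limma called 0 of 6870 genes in each of the 3 comparisons (0%), with 481, 228 and 289 at an unadjusted p under 0.05. For Gh the difference was -0.26 ± 0.59 with GCV (limma adjusted p = 0.999) and -1.12 ± 0.59 for the pair labelled PTX+ABT263 (adjusted p = 0.999). For Vtn, PTX against Control, it was -0.90 ± 0.35 (adjusted p = 0.680), with 0.03 in the other spots. These comparisons share the PTX sections, and the other spots share the animals with the meningeal ones. Without Control section 2, 13 genes passed for PTX against Control.

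The pituitary lies under the brain against the meninges, and Gh was at 0 in the meningeal spots of all 4 senolytic sections. Of the Gh UMIs of all kept spots 51.5% were in the meningeal spots, and of those of Prl 58.3%. The 4 pituitary markers summed to between 0 and 5.47 UMIs per 10000 in the meningeal spots of a section and between 0.0588 and 0.179 in the other spots.

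Cdkn2a, the gene of p16, was seen in 1 of 427 meningeal spots, in a section labelled PTX+ABT263, which is 0.234% (exact Clopper-Pearson 95% interval 0.00593 to 1.30). In the other spots it was seen in 53 of 20901, or 0.254% (0.190 to 0.332), which was 25 of 5187 in PTX, 7 of 5501 with GCV, 14 of 5394 in the pair labelled PTX+ABT263 and 7 of 4819 in Control. The median other spot held 15989 and 13530 UMIs in PTX and 7652 and 12822 in Control, and the difference between groups was not tested. By group Cdkn2a was seen in 0 of 106 meningeal spots in PTX, which allows a share of up to 2.83%, 0 of 113 with GCV (up to 2.65%), 1 of 110 in the pair labelled PTX+ABT263 and 0 of 98 in Control (up to 3.06%). These limits are 3 spots as a share of the group's meningeal spots, not exact Clopper-Pearson bounds. The median depth was 5273 UMIs in the meningeal and 12004 in the other spots. Intervals and limits cover counting error only, and bound spots with a UMI, not spots with cells that express the gene. In p16-3MR mice the transgene is driven by the promoter of this gene. Cell cycle inhibitors and p53 genes had 0 of 8 past 2-fold against the other spots in every section, with sums of 1.52 to 2.51 and 1.76 to 2.04 UMIs per 10000, and Cdkn1a (p21) had a median of 0.153 and 0.125. From the list of proteins that senescent cells secrete 6 of 13 genes were higher in every section, beside 3.38% of all genes. Timp3 (3.52-fold), Igfbp5 and Igfbp7 were among them, and which cells supplied these UMIs was not tested. The inhibitors Timp2 and Serpine2 were at 0.981-fold and 1.06-fold of the other spots. In PTX against Control 0 of 5 tested cell cycle genes and 0 of 8 tested secreted factors passed, with medians of -0.25 and -0.11.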

How the data were processed

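UMI counts per gene and spot were used as deposited. The authors aligned reads to mm10 and made these counts in Space Ranger, whose version in the file headers is 1.2.1, and the submitters' processing notes also name Seurat 4.0. Brains were cut at 10 µm, and images were not analysed here. Spots and genes were handled in Python 3.11.15 (numpy 2.4.6, scipy 1.17.1, pandas 2.3.3), figures in matplotlib 3.10.9. The 7 score genes were left out of all tests. The members and gene lists were chosen with earlier results of these data known. Named genes follow a rule: the 15 highest and 10 lowest against the other spots (at least 1 UMI per 10000), the 10 each way with the smallest adjusted p that passed in a test (5 by p where under 5 passed, without unnamed models), and up to 4 per list. A few genes that the rule names are not reported here.

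Section sums entered 1 fit over all 8 sections in edgeR 4.0.16, with genes kept by filterByExpr, libraries scaled by TMM, the quasi-likelihood test and a Benjamini-Hochberg adjusted p under 0.05, with DESeq2 1.42.0 as an alternative, in R 4.3.3. SE values were obtained by dividing each log2 fold change by the root of its F statistic. Effects in the meningeal and other spots were compared with limma 3.58.1 on differences of log2 CPM (prior count 2). Ratios against the other spots add 1 UMI scaled to depth. The fits were tested on simulated data. Both sections of a group correlated at 0.844 to 0.926 over genes and differed beyond sampling noise (chi-square over its degrees of freedom 1.69 to 2.55). Other alternatives were other shares and score limits, other filters, scalings and comparators, a replicate block, a covariate, and leaving out sections, where the fit takes the spread of a single remaining section to equal that of the other groups.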

Additional observations from a re-analysis of the deposited data

How the results depend on the processing

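How far the few UMIs of the meningeal spots, apart from the 2 sections per group, limit the group comparisons was not tested. The edge share kept its direction and stayed past the limit under every alternative run, with differences of 39.4 to 66.8 points, and of 54.7 to 57.4 points with 1 section left out. The count of genes higher than in the other spots was 297 to 547 under other shares, score limits, pseudocounts and ratios of 1.5, but 219 at a ratio of 3, 171 with at least 100 UMIs, 171 against touching spots and 228 for edge spots, and 369 to 396 with 1 section left out (370 without the sections labelled PTX+ABT263). The count of lower genes was small and moved more: 33 with the leading 1% of spots, 10 with the leading 4%, 4 when spots were chosen by UMIs not divided by depth, 11 with at least 3 score gene UMIs, 262 at a ratio of 1.5, 1 at a ratio of 3, 13 with at least 100 UMIs, 0 against touching spots, 0 against edge spots, and 20 to 42 with 1 section left out (34 without PTX+GCV section 1, 42 without PTX+GCV section 2).

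For PTX against Control, PTX+GCV against PTX and PTX+ABT263 against PTX, the genes that passed numbered 5, 5 and 8. DESeq2 gave 0, 0 and 0, no filter on low counts 18, 13 and 33, and the leading 1% of spots 2, 1 and 2. The leading 4% gave 10 for GCV and 95 for ABT263, the covariate 8 for PTX, and spots outside the choroid plexus and smooth muscle rich sets 2 for GCV and 5 for ABT263. With 1 section left out the counts were 3 to 19, 8 to 10 and 9 to 17, the first being 19 without PTX section 1, 16 without PTX+GCV section 2, 12 without PTX+GCV section 1 or PTX+ABT263 section 2, 10 without PTX+ABT263 section 1 and 3 without PTX section 2, and the third 17 without PTX+ABT263 section 2, 15 without PTX+GCV section 2, and 14 without PTX section 2 or PTX+GCV section 1. Without the sections labelled PTX+ABT263 the first 2 counts were 7 and 6. With a replicate block they were 5, 6 and 8, and 15 of the 16 named calls stayed. Sections of different groups share only a number, with deviations of same-numbered sections correlated at -0.03 to 0.09. Of the 16 calls, 7 passed with each section left out in turn. The effect in meningeal minus other spots gave 0 genes with a prior count of 0.5, a replicate block or touching spots, and 0 to 13, 0 and 0 to 1 with 1 section left out. The edge and interior count of 165 was 267 with no filter, 268 with the leading 4% of spots, and 133 to 194 with 1 section left out. Total counts in place of TMM factors gave 54 higher and 158 lower genes at the edge. The Cdkn2a share was 0% at 2 or more UMIs, 0% in the leading 1% of spots, and 0 to 0.27% with 1 section left out, 0% without PTX+ABT263 section 1, which holds the only positive spot. Alternatives with at least 3 score gene UMIs, by UMIs not divided by depth, against edge or shallow spots, without the array border, and outside other sets were chosen after seeing the data. The cause was not tested for any of these differences.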

Other observations

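Some gene groups outside the report's comparisons can be given as values. Metallothioneins were higher in the meningeal spots, Mt2 by 2.35-fold in 8 of 8 sections past 2-fold, Mt1 by 1.90-fold in 2 and Mt3 by 1.27-fold in 0. Genes that neurons switch on with activity were lower on average, Egr1 with a median of 0.871 UMIs per 10000 in the meningeal spots and 2.43 in the other spots, and 0 of 8 passed 2-fold in every section. Tubulins, which paclitaxel binds as protein, summed to 26.1 to 38.0 in the meningeal spots and 37.3 to 43.1 in the other spots, and 0 of 7 tested tubulin genes passed in any of the 3 group comparisons. BCL-2 family genes, whose products ABT263 binds, summed to 2.03 to 3.31 and 2.37 to 2.81. Ndnf, a gene of layer 1 neurons, was 6.58-fold higher in the meningeal spots and past 2-fold in 8 of 8 sections, while Lamp5 of the same layer had a median of 0.572 in the meningeal spots and 1.61 in the other spots.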
